A study of Homo sapiens with 8 samples.

Results

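The transcripts described here belong to the pathway of active DNA demethylation: the 3 TET oxidases (TET1, TET2 and TET3), the DNA glycosylases TDG, SMUG1, MBD4 and UNG, and the repair partners APEX1, XRCC1 and GADD45A. They were taken by symbol as every transcript cluster, the group of probes that reads 1 transcript on this array, that carries 1 of these symbols and no other. This gave 11 clusters for 10 genes, out of 19460 clusters for 18417 genes, since TET2 is read by a brighter and a dimmer cluster. All cells were NCCIT, a human embryonic carcinoma line with a pluripotent expression profile, left undifferentiated and transfected with siRNA. The siTET1, siTET2 and siTET3 groups received a pool of several siRNAs against TET1, TET2 or TET3 respectively, and siNTC cells received a non-targeting siRNA in parallel. Each group is represented by 2 Affymetrix Human Gene 1.0 ST arrays hybridised with cDNA made from 250 ng of total RNA, 8 arrays in all. The model is therefore a transient lowering of each transcript in 1 cell line, not its removal.

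TET enzymes convert 5-methylcytosine to 5-hydroxymethylcytosine and further to 5-formylcytosine and 5-carboxylcytosine, using oxygen, iron and 2-oxoglutarate. TDG cuts the last pair of these bases from DNA, the abasic site is opened by the endonuclease APEX1, and the gap is filled and sealed by a complex that XRCC1 holds together, so that an unmodified cytosine takes the place of the methylated one. SMUG1, UNG and MBD4 remove uracil or thymine from mispairs and have been proposed to act on deaminated bases in the same route, and GADD45A is a stress-induced protein thought to bring the repair machinery to methylated sites. Pluripotent cells are known for a high expression of TET1.

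The arrays carried the transcripts that the cell line should have. Of 12 listed pluripotent cell markers, 9 were measured by a cluster of their own, and POU5F1, NANOG and TDGF1 were not. All 9 measured markers lay above background in every group. SOX2 lay between 12.48 and 12.68 on the log2 scale over the 8 arrays and LIN28A between 12.10 and 12.43. Background here is the level under which 95% of 341 olfactory receptor genes lay by their mean, a log2 intensity of 5.21, and 69.1% of the clusters lay above it. Of 17 markers of differentiated cells, 9 or 10 lay above it in each group, and PAX6, SOX1, TBXT, SOX17, FOXA2, KRT7 and AFP lay below it in all groups. The median of the pluripotent markers ran from 11.34 to 11.38 on the siNTC arrays and from 11.57 to 11.68 on the depletion arrays, and that of the differentiated markers from 5.49 to 5.51 and from 5.27 to 5.41. Such a median is the level of the middle gene and not the change of the list. For the pluripotent markers, the 11.34 was the level of L1TD1 and the 11.68 that of DPPA4. The markers within a list did not move as 1: in the mean of the depletions the median log2 change of the 9 pluripotent markers was -0.058, where L1TD1 (0.44) and DPPA4 (0.14) rose and SOX2 (-0.13), SALL4 (-0.21) and ZFP42 (-0.29) fell. Of the 17 differentiated markers, with a median change of -0.072, 2 passed as higher and 5 as lower. Over all clusters, 40.3% passed in the mean of the depletions, 16.4% higher and 23.9% lower. The mesoderm and trophoblast factor HAND1 fell in every depletion by 0.84 to 0.96 (mean change -0.88 ± 0.080, adjusted p = 1.99e-06 by limma), whereas GATA6 (0.37) and FOXA2 (0.25, at levels below background) were higher. These marker changes move with depletion in each result against siNTC, and their part in them was not tested. Arrays of 1 group correlated at 0.9975 to 0.9989 over all clusters, arrays from 2 separate depletions at 0.9954 to 0.9977, and a siNTC array with a depletion array at 0.9894 to 0.9914. All 11 member clusters were above background on all 8 arrays.

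The first question was whether each siRNA pool lowered its own target and what it did to the other TET transcripts. Each targeted TET fell in its own depletion, to between 47.4% and 62.3% of its siNTC level on the brightest cluster of each gene and to 64.7% on the dimmer TET2 cluster. TET1 also fell in siTET2 and rose in siTET3, and TET2 also fell in siTET3. TET3 did not pass the test in siTET1 or siTET2.

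TET1, the TET that is characteristic of pluripotent cells, lies on GRCh38.p14 at chr10:68560337-68694487 and is read by cluster 7927876. Its log2 intensity was 10.62 and 10.53 on the siNTC arrays, 9.91 and 9.87 in siTET1, 10.28 and 10.28 in siTET2, and 10.93 and 11.05 in siTET3. The 4 groups did not overlap, and their order from high to low was siTET3, siNTC, siTET2 and siTET1. The log2 change against siNTC was -0.68 ± 0.048 (SE of the fit, n = 2 arrays per group) in siTET1, which left 62.3% of the siNTC level (95% confidence interval 57.9% to 67.0%; adjusted p = 4.73e-07 by limma with Benjamini-Hochberg adjustment over all clusters). In siTET2 it was -0.30 ± 0.048, or 81.4% (75.7% to 87.6%; adjusted p = 0.000354), and in siTET3 it was 0.42 ± 0.048, or 134% (124% to 144%; adjusted p = 2.34e-05). Every neighbouring pair in this order differed past the test, since siTET2 lay above siTET1 by 0.39 (adjusted p = 0.000775). The widest gap between depletions that did not target TET1 was that of siTET3 over siTET2, a log2 difference of 0.72 ± 0.048 (1.64-fold, adjusted p = 4.75e-06).

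TET2, which lacks the CXXC DNA-binding domain of its relatives and pairs with separate CXXC proteins, lies at chr4:105145875-105279803. On its brighter cluster, 8096675, the log2 intensity was 7.71 and 7.91 in siNTC, 7.62 and 7.64 in siTET1, 6.95 and 6.92 in siTET2, and 7.22 and 7.48 in siTET3. Both siNTC arrays lay above all 6 depletion arrays, as they did for 24.4% of all clusters. TET2 fell in siTET2 by 0.88 ± 0.096 on the log2 scale, to 54.4% (47.1% to 62.8%; adjusted p = 1.34e-05 by limma), and in siTET3 by 0.47 ± 0.096, to 72.4% (62.7% to 83.7%; adjusted p = 0.00204). In siTET1 the log2 change was -0.19 (95% interval -0.39 to 0.022) and missed the threshold (adjusted p = 0.164). The order was siNTC, siTET1, siTET3 and siTET2, and the neighbours siNTC and siTET1, and siTET1 and siTET3 (-0.28, adjusted p = 0.0786; -0.41 and 0.0140 without siTET3 replicate 2), were not told apart. The step from siTET2 up to siTET3, 0.41 ± 0.096, passed (adjusted p = 0.0144), but not without siTET2 replicate 1 (adjusted p = 0.0900), siTET2 replicate 2 (0.117) or siTET3 replicate 2 (0.0711).

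The dimmer TET2 cluster, 8096669, gave 7.40 and 7.41 in siNTC, 7.08 and 7.18 in siTET1, 6.59 and 6.96 in siTET2, and 7.003 and 6.93 in siTET3. It ordered the groups as the brighter one did, again with both siNTC arrays highest. Its log2 change was -0.63 ± 0.11 in siTET2 (adjusted p = 0.000609 by limma), -0.44 ± 0.11 in siTET3 (adjusted p = 0.00722) and -0.27 ± 0.11 in siTET1 (adjusted p = 0.0762), so both clusters fell in siTET2 and siTET3. They parted in the comparisons of the depletions with each other, where the dimmer cluster told siTET2 apart from neither other depletion in the main fit. The difference of siTET3 from siTET2 was 0.41 on the brighter cluster (adjusted p = 0.0144 by limma). On the dimmer one it was 0.19 (adjusted p = 0.330), and the arrays of these groups overlapped. For siTET2 against siTET1 it was -0.69 on the brighter cluster (adjusted p = 0.00148) and -0.35 on the dimmer one (adjusted p = 0.0838). The latter passed without siTET2 replicate 2 (-0.54, adjusted p = 0.0369). The siTET1 change of the dimmer cluster passed under quantile normalization (adjusted p = 0.0404) and without siTET2 replicate 1 (0.0313) or replicate 2 (0.0327), within a range from 0.0235 to 0.312 over its alternatives.

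TET3, the TET known for its action in the zygote and in neurons, lies at chr2:73983631-74135498 and is read by cluster 8042811. Its log2 intensity was 7.74 and 7.30 in siNTC, 7.25 and 7.12 in siTET1, 7.60 and 7.50 in siTET2, and 6.23 and 6.66 in siTET3. The siTET3 arrays were the lowest of the 8, whereas siTET2 lay within the spread of siNTC. TET3 fell in siTET3 by 1.08 ± 0.15 on the log2 scale, to 47.4% (37.8% to 59.4%; adjusted p = 0.000102 by limma). The change was -0.34 in siTET1 (95% interval -0.66 to -0.012, not adjusted for the number of clusters; adjusted p = 0.107) and 0.026 in siTET2 (-0.30 to 0.35; adjusted p = 0.921). The siTET1 change passed without siNTC replicate 2 (-0.56, adjusted p = 0.0186), siTET3 replicate 1 (0.0454) or siTET3 replicate 2 (0.0460). The order was siTET2, siNTC, siTET1 and siTET3, where no neighbouring pair among the first 3 groups differed past the test and siTET3 lay below siTET1 by 0.74 (adjusted p = 0.00648), which missed it without siTET1 replicate 1 (0.0620) or siTET3 replicate 1 (0.0520).

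**Figure D1:**
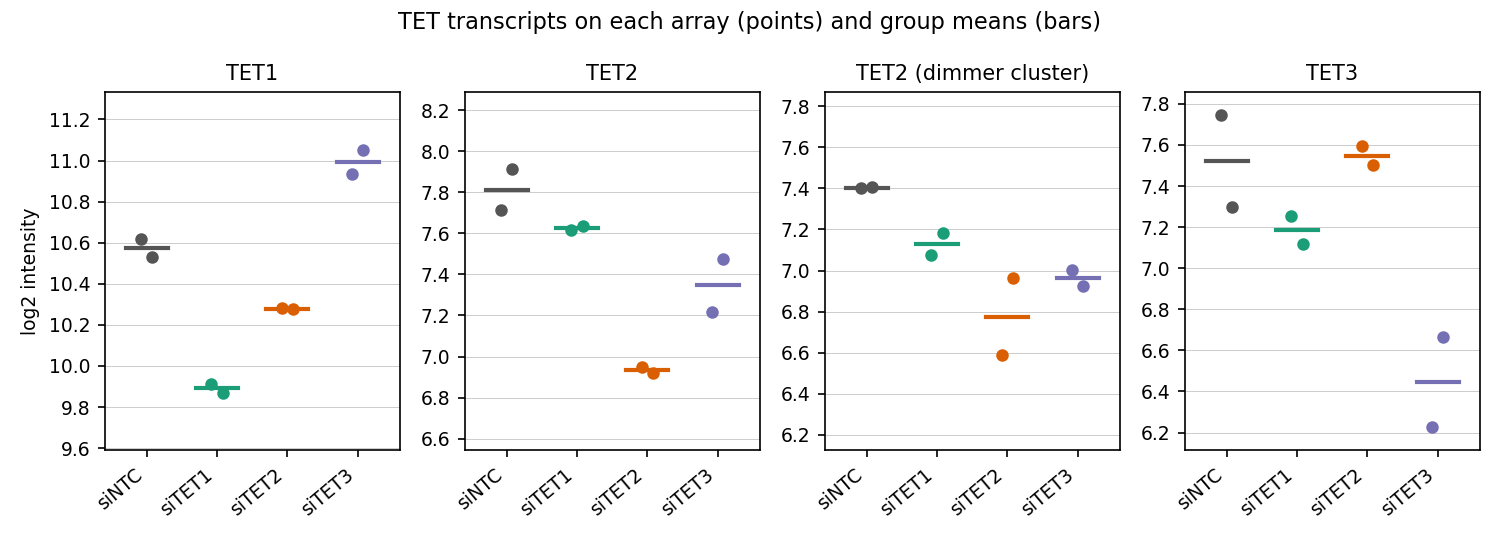
Log2 intensity of TET1, both TET2 clusters and TET3 on each array (points) with the group mean (bar), for 2 arrays per group and on vertical axes of equal length whose positions differ. Each targeted TET has its lowest mean in its own depletion, and TET1 sits at 10.93 and 11.05 in siTET3, above siNTC.

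Among the tests of a TET that was not the target (each TET in the other 2 depletions against siNTC, and those 2 depletions against each other, with the brighter cluster for TET2), 4 of 9 passed: TET1 in siTET2, in siTET3 and between them, and TET2 in siTET3. These counts stand against a wide background. Between depletions, 5.99% of all clusters passed in siTET2 against siTET1, 13.3% in siTET3 against siTET1 and 11.8% in siTET3 against siTET2. In siTET1 34.0% of all clusters passed the test against siNTC (15.4% higher, 18.6% lower), in siTET2 35.7% (14.3% higher, 21.4% lower) and in siTET3 35.7% (13.7% higher, 22.0% lower). Of the clusters called in siTET3, 38.3% were higher and 61.7% lower on the deposited values, and 49.1% and 50.9% once each array was centred on its median. All comparisons with siNTC share the same 2 control arrays, so a deviation of those arrays enters each of them. In such bulk samples, fewer cells of a type and less RNA per cell cannot be told apart.

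Next, the glycosylases and repair partners, none of which was targeted, were compared. UNG, APEX1 and XRCC1 fell in every depletion, to between 80.4% and 92.4% of the siNTC level. SMUG1 rose in siTET1 and MBD4 rose in siTET3. TDG and GADD45A passed the test in no comparison. Of these 7 genes, 4 passed in siTET1 (1 higher, 3 lower), 3 in siTET2 (all lower) and 4 in siTET3 (1 higher, 3 lower), and none reached 1.5-fold in any of the 7 comparisons. Over all clusters, 34.0%, 35.7% and 35.7% passed in these comparisons, and with 7 genes no difference between the pathway and this background is claimed.

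TDG, the glycosylase that excises 5-formylcytosine and 5-carboxylcytosine and so completes the TET reaction, lies at chr12:103965872-103988874 (cluster 7958147). Its log2 intensity was 7.61 and 7.95 in siNTC, 7.74 and 7.81 in siTET1, 7.66 and 7.66 in siTET2, and 7.86 and 7.64 in siTET3. The siNTC pair spanned all 6 depletion arrays. The log2 changes of -0.0049, -0.12 and -0.027 (SE 0.10 each; adjusted p = 0.981, 0.434 and 0.867 by limma) had 95% intervals that together ran from -0.34 to 0.22, which covers TDG levels from 78.8% to 117% of siNTC.

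SMUG1, which removes uracil and 5-hydroxymethyluracil, lies on the same chromosome at chr12:54158235-54188985 (cluster 7963741). It gave 8.06 and 7.79 in siNTC, 8.28 and 8.26 in siTET1, 7.89 and 7.75 in siTET2, and 7.96 and 8.08 in siTET3. Both siTET1 arrays lay above the other 6. SMUG1 rose in siTET1 by a log2 change of 0.34 ± 0.088 (1.27-fold, 95% interval of the level 111% to 145%; adjusted p = 0.00949 by limma), and gave -0.11 in siTET2 (95% interval -0.30 to 0.084) and 0.092 in siTET3 (-0.10 to 0.28). The siTET1 call was lost without siTET1 replicate 1 (adjusted p = 0.0599) or siNTC replicate 2 (adjusted p = 0.103, with a log2 change of 0.21). Between depletions SMUG1 was lower in siTET2 than in siTET1 by 0.45 ± 0.088 (adjusted p = 0.0119), a call lost without any 1 of the siTET1 arrays (adjusted p = 0.0981 without replicate 1 and 0.0856 without replicate 2) or the siTET2 arrays (0.0592 and 0.144). The difference of siTET3 from siTET1 was -0.25 (adjusted p = 0.0893, and 0.0413 or 0.0401 without siNTC replicate 1 or 2).

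MBD4, a methyl-CpG binding protein with a glycosylase domain for T:G and U:G mispairs, lies at chr3:129430947-129439948 (cluster 8090577). Its log2 intensity was 9.13 and 9.09 in siNTC, 9.06 and 9.16 in siTET1, 8.86 and 9.04 in siTET2, and 9.40 and 9.34 in siTET3. The siTET3 arrays were the highest and the siTET2 arrays the lowest, with siNTC and siTET1 interleaved between them. MBD4 rose in siTET3 by 0.26 ± 0.064 (120%, 95% interval 109% to 132%; adjusted p = 0.00630 by limma), and siTET3 exceeded siTET2 by 0.42 ± 0.064 (adjusted p = 0.00125). The change in siTET2 was -0.16 (-0.30 to -0.019, not adjusted for the number of clusters; adjusted p = 0.0750, and 0.0258 at -0.25 without siTET2 replicate 2), and that in siTET1 0.0053 (-0.13 to 0.14). MBD4 and TET1 were the only members that passed the test as higher in siTET3.

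UNG, the main uracil-DNA glycosylase of nucleus and mitochondria, lies at chr12:109097597-109110992 (cluster 7958455). It gave 10.21 and 10.20 in siNTC, 10.00 and 10.01 in siTET1, 10.08 and 10.10 in siTET2, and 9.93 and 9.89 in siTET3. The 4 groups did not overlap. UNG fell by 0.20 ± 0.041 in siTET1 (to 87.2%, 82.0% to 92.7%; adjusted p = 0.00212 by limma), by 0.30 ± 0.041 in siTET3 (to 81.3%, 76.5% to 86.5%; adjusted p = 8.84e-05) and by 0.11 ± 0.041 in siTET2 (to 92.4%, 86.9% to 98.2%; adjusted p = 0.0446). The last call was lost in 12 of 18 alternatives, among them quantile normalization (adjusted p = 0.0654), median centring (0.110) and the omission of any 1 siNTC, siTET1 or siTET2 array, with adjusted p between 0.0693 and 0.205. UNG was lower in siTET3 than in siTET2 by 0.18 (adjusted p = 0.0114, but 0.0763 or 0.116 without siTET2 replicate 1 or 2), whereas siTET2 against siTET1 (0.083, adjusted p = 0.306) and siTET3 against siTET1 (-0.10, adjusted p = 0.136) missed the threshold.

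APEX1, the major endonuclease that opens abasic sites, lies at chr14:20455226-20457767 (cluster 7973056). Its log2 intensity was 12.41 and 12.39 in siNTC, 12.27 and 12.25 in siTET1, 12.12 and 12.09 in siTET2, and 12.23 and 12.27 in siTET3. The siTET2 arrays were the lowest, and those of siTET1 lay within the range of siTET3. APEX1 fell by 0.14 ± 0.032 in siTET1 (to 90.7%; adjusted p = 0.00376 by limma), by 0.29 ± 0.032 in siTET2 (to 81.5%, 77.8% to 85.5%; adjusted p = 1.18e-05) and by 0.15 ± 0.032 in siTET3 (to 90.3%; adjusted p = 0.00275). Without the intensity trend in the fit, the siTET1 and siTET3 calls were lost (adjusted p = 0.0749 and 0.0627). The lower level in siTET2 passed the test against siTET1 (-0.15, adjusted p = 0.0149) and against siTET3 (a difference of 0.15, adjusted p = 0.00948). The first was lost without any 1 of the 4 arrays compared (adjusted p between 0.0951 and 0.166), and the second without siTET2 replicate 1 (0.0575) or 2 (0.122).

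XRCC1, the scaffold that binds DNA polymerase beta, PARP1 and DNA ligase 3 at single-strand breaks, lies at chr19:43543311-43575527 (cluster 8037331). It gave 9.94 and 9.92 in siNTC, 9.64 and 9.71 in siTET1, 9.61 and 9.66 in siTET2, and 9.61 and 9.62 in siTET3. The 6 depletion arrays lay between 9.61 and 9.71, all below both siNTC arrays, and siTET2 overlapped both other depletions, whereas siTET1 lay above siTET3. XRCC1 fell by 0.25 ± 0.045 in siTET1 (to 84.0%, 78.4% to 89.9%; adjusted p = 0.000804 by limma), by 0.29 ± 0.045 in siTET2 (to 81.6%; adjusted p = 0.000226) and by 0.31 ± 0.045 in siTET3 (to 80.4%; adjusted p = 0.000136). Differences between depletions were -0.042, -0.063 and -0.021, with 95% intervals within -0.16 to 0.078. These calls against siNTC held in every alternative other than the demand for 1.5-fold.

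GADD45A, a p53-responsive protein that binds XPG and TDG, lies at chr1:67685201-67688334 (cluster 7902227). It gave 7.80 and 7.93 in siNTC, 7.89 and 7.97 in siTET1, 7.92 and 7.79 in siTET2, and 7.69 and 7.98 in siTET3. Every group overlapped siNTC. Its log2 changes were 0.063, -0.011 and -0.034 (SE 0.094 each; adjusted p = 0.665, 0.948 and 0.815 by limma), with 95% intervals that together ran from -0.24 to 0.27.

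**Figure D2:**
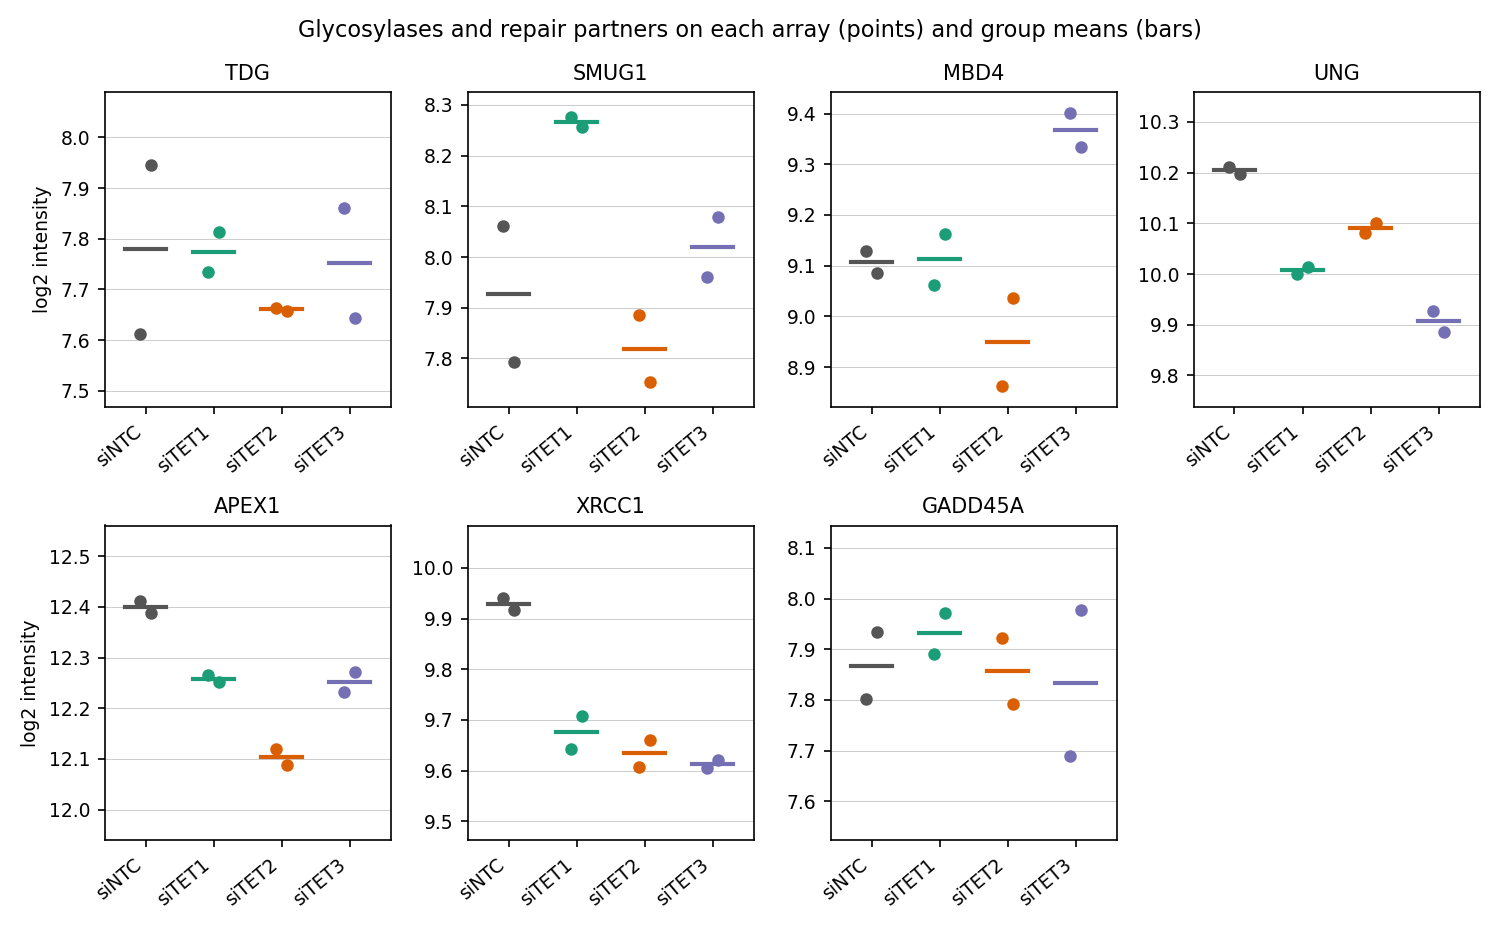
Log2 intensity of the 7 glycosylases and repair partners on each array (points) with the group mean (bar), 2 arrays per group, on vertical axes of equal length whose positions differ. UNG, APEX1 and XRCC1 are highest in siNTC, SMUG1 is highest in siTET1 and MBD4 in siTET3, whereas every depletion overlaps siNTC for TDG and GADD45A.

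**Figure D3:**
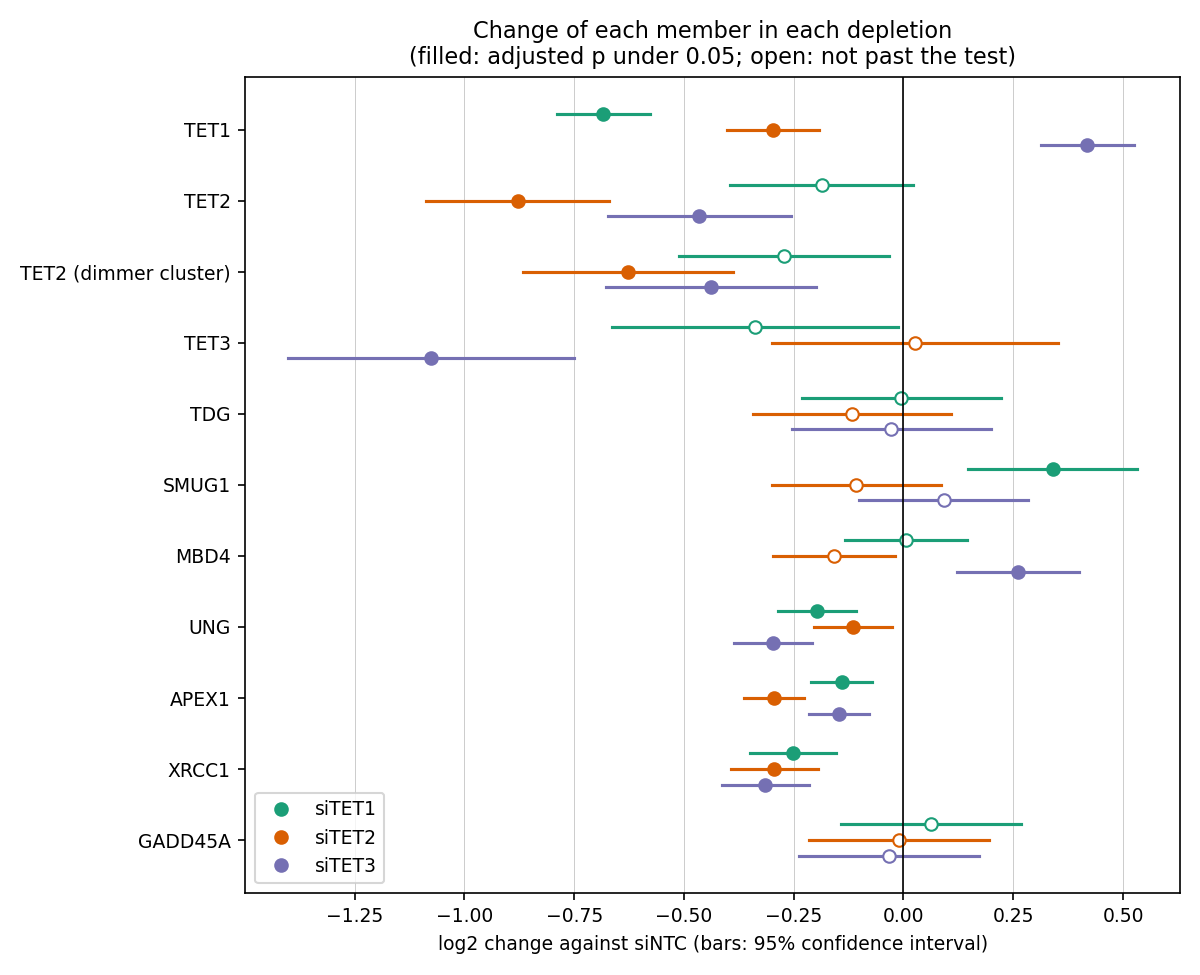
Log2 change of each member cluster against siNTC in siTET1, siTET2 and siTET3, with its 95% confidence interval from limma; filled points passed the test at an adjusted p under 0.05. The targeted TET clusters lie between -0.63 and -1.08, and UNG, APEX1 and XRCC1 lie between -0.11 and -0.31 in every depletion.

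With the 6 depletion arrays pooled, the mean of the depletions differed from siNTC for UNG (-0.20 ± 0.033, adjusted p = 0.000292 by limma), APEX1 (-0.19 ± 0.026, adjusted p = 5.43e-05) and XRCC1 (-0.29 ± 0.037, adjusted p = 4.21e-05), and for no other repair member (SMUG1 gave 0.11, adjusted p = 0.270, and 0.24 with 0.0315 without siNTC replicate 1). Across all clusters 40.3% passed in this comparison, 16.4% higher and 23.9% lower. Both siNTC arrays exceeded all 6 depletion arrays for 5 of the 11 member clusters, namely both TET2 clusters, UNG, APEX1 and XRCC1, against 24.4% of all clusters. The TET2 clusters read the same gene, which siTET2 targeted, and no difference from this share is claimed. Among the repair members, comparisons between depletions passed for SMUG1 and APEX1 in siTET2 against siTET1 (5.99% of all clusters passed), for MBD4 in siTET3 against siTET1 (0.26, adjusted p = 0.0204; 13.3% of all clusters) and for MBD4, APEX1 and UNG in siTET3 against siTET2 (11.8% of all clusters). The MBD4 difference between siTET3 and siTET1 lost its call in 6 of 18 alternatives, among them the omission of siTET1 replicate 1 (adjusted p = 0.164), siTET1 replicate 2 (0.0506) or siTET3 replicate 1 (0.110). The genes beside each member on its chromosome, up to 12 on each side, had median log2 changes between -0.11 and 0.097 in the depletions.

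The sequences in front of the start sites are shown for members that fell in every depletion or rose in siTET3. RefSeq windows of the GRCh38.p14 assembly, from 250 bases before to 50 after a start site, were found for 8 of the 10 genes, 13 windows in all; SMUG1 and GADD45A had no entry. The 120 bases just upstream of a start are printed 5′ to 3′ for UNG (chr12:109097477-109097596, plus strand) and APEX1 (chr14:20455106-20455225, plus strand), which fell in every depletion, and for TET1 (chr10:68560217-68560336, plus strand) and MBD4 (chr3:129439949-129440068, minus strand), which rose in siTET3. Capitals mark each CpG, the dinucleotide whose cytosine DNA methyltransferases and TET enzymes modify.
UNG: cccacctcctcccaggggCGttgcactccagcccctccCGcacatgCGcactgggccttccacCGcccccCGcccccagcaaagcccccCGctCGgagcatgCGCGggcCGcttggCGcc
APEX1: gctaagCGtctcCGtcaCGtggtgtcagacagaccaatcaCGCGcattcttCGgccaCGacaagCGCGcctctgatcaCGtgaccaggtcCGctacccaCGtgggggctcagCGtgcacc
TET1: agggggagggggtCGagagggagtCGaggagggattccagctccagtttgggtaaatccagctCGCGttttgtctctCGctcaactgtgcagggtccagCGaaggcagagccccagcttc
MBD4: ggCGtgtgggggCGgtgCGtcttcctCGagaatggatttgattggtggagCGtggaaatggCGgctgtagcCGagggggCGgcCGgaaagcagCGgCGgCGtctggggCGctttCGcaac

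Over the whole window of 300 bases, UNG had 22 CpG at this start site and 29 at its second, APEX1 had 19, MBD4 29 and TET1 10. XRCC1, which also fell in every depletion, had 31, but the stretch before its start overlaps the annotated start of the neighbouring gene PINLYP and is not printed. The median of all 35116 windows was 14, with quartiles at 4 and 28, so UNG, APEX1 and XRCC1, which fell, and MBD4, which rose in siTET3, lay above the median, and TET1 at this start lay below it. TDG, which passed the test in no comparison, also lay above the median, with 22 CpG. The TET2 windows had 13 and 35, and the second of TET3 had 33. Whether CpG content goes with a change was not tested. At its other start sites TET1 had 6 and 11 CpG, and the most CpG-rich member window was the first of TET3, with 45, more than in 96.5% of all windows. Searched on both strands, the GC box GGGCGG was in 8 of the 13 member windows and in 45.0% of all windows, the E box CACGTG in 5 and in 7.26%, and CCAAT in 9 and in 34.6%. The GC box and the E box each hold a CpG, and none of the 3 motifs contains another. Over the whole 300 bases, of which the printed stretch is a part, the first UNG window and that of MBD4 held a GC box and CCAAT, that of APEX1 an E box and CCAAT, and the first of TET1 none of them; the second UNG window held all 3. These matches describe the letters only, and several windows of 1 gene are not independent.

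The rest of the pathway was read through lists of related genes. Of 21 other base excision repair genes, 19 were measured by a cluster of their own, and in the mean of the depletions 5 were higher, 3 lower and 11 did not pass, beside the 40.3% of all clusters that passed. The median log2 change of the list was -0.018, and that of all clusters -0.026. APLF, a poly(ADP-ribose)-binding factor of strand break repair, was at 5.81 and 5.90 in siNTC and between 6.29 and 6.81 on the 6 depletion arrays (mean change 0.69 ± 0.086, adjusted p = 2.96e-05 by limma). NEIL3, a glycosylase for oxidised bases, rose from 9.01 and 9.02 to between 9.27 and 9.39 (0.32 ± 0.040, adjusted p = 3.35e-05). LIG3, the ligase that XRCC1 carries, rose by 0.26 ± 0.048 (adjusted p = 0.000817) while XRCC1 itself fell. APEX2, the second abasic endonuclease, fell by 0.23 ± 0.049 (adjusted p = 0.00205). In the separate depletions 5, 7 and 10 of the 19 passed in siTET1, siTET2 and siTET3, beside 34.0%, 35.7% and 35.7% of all clusters. The 5 of siTET1 were all higher whereas 4 of 7 and 6 of 10 were lower in siTET2 and siTET3. Over all clusters, 15.4% were higher and 18.6% lower in siTET1, 14.3% and 21.4% in siTET2, and 13.7% and 22.0% in siTET3. Whether these splits differ from each other or from all clusters was not tested.

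Of 13 GADD45 paralogs and cytidine deaminases, enzymes proposed to start a deamination route, 10 were measured and 6 lay above background. In the mean of the depletions 3 were higher, 2 lower and 5 did not pass. The list's median was -0.10, beside -0.026 for all clusters, of which 40.3% passed. The counts and the median include genes under background, among them APOBEC3G (mean level 4.78), 1 of the 2 lower. APOBEC3B was at 6.13 and 6.49 in siNTC and between 6.64 and 7.004 on the depletion arrays (0.55 ± 0.092, adjusted p = 0.000386 by limma), and APOBEC3D fell by 0.32 ± 0.080 (adjusted p = 0.00661). These genes belong to a cluster of close paralogs on chromosome 22, and cross-hybridisation between them was not tested. GADD45B (0.25 ± 0.088, adjusted p = 0.0358) and GADD45G (0.23 ± 0.075, adjusted p = 0.0290) rose in the mean of the depletions, at which GADD45A gave 0.0062 (95% interval -0.16 to 0.17). GADD45B passed in siTET2 (0.49 ± 0.11, adjusted p = 0.00284) but gave 0.033 in siTET1 (adjusted p = 0.857).

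Of 16 TET partners and enzymes of the cofactor 2-oxoglutarate, 15 were measured and 14 lay above background. In the mean of the depletions 2 were higher, 8 lower and 5 did not pass. The list median was -0.17, beside -0.026 for all clusters, of which 40.3% passed (16.4% higher, 23.9% lower). The counts and the median include WT1, 1 of the 8 lower, whose mean level of 4.59 lay under background. IDH3A and IDH3B, subunits of the mitochondrial isocitrate dehydrogenase that makes 2-oxoglutarate, fell by 0.57 ± 0.041 (adjusted p = 3.08e-07 by limma) and 0.60 ± 0.046 (adjusted p = 5.30e-07). IDH3B was at 9.66 and 9.73 in siNTC and between 9.03 and 9.19 on the depletion arrays. SIN3A, a co-repressor scaffold that binds TET1, fell from 10.50 and 10.58 to between 9.86 and 9.92 (0.66 ± 0.036, adjusted p = 3.10e-08), and HCFC1, a partner of the glycosyltransferase OGT, fell by 0.41 ± 0.031 (adjusted p = 4.08e-07). SIN3A and IDH3A lie on chromosome 15, where the genes around them were also lower, with median changes of -0.36 and -0.19 over 24 neighbours each. The neighbours of IDH3B and HCFC1 had medians of -0.048 and 0.00087.

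Of 12 readers of methylated or oxidised cytosine, 11 were measured, and in the mean of the depletions 2 were higher, 5 lower and 4 did not pass, with a median of -0.058, beside -0.026 for all clusters, of which 40.3% passed. THYN1, reported to bind 5-hydroxymethylcytosine, was at 9.56 and 9.68 in siNTC and between 8.41 and 8.83 on the depletion arrays (-0.97 ± 0.061, adjusted p = 8.90e-08 by limma). WDR76, another such binder, fell from 10.21 and 10.23 to between 9.40 and 9.70 (0.71 ± 0.035 on the log2 scale, adjusted p = 1.25e-08). It too lies on chromosome 15, where its 24 neighbours had a median of -0.34, and the 16 neighbours of THYN1 had -0.19. ZBTB38, a zinc finger protein that binds methylated CpG, rose by 0.39 ± 0.053 (adjusted p = 7.37e-05), and UHRF2, a ubiquitin ligase with a domain for 5-hydroxymethylcytosine, rose by 0.24 ± 0.042 (adjusted p = 0.000460).

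**Figure D4:**
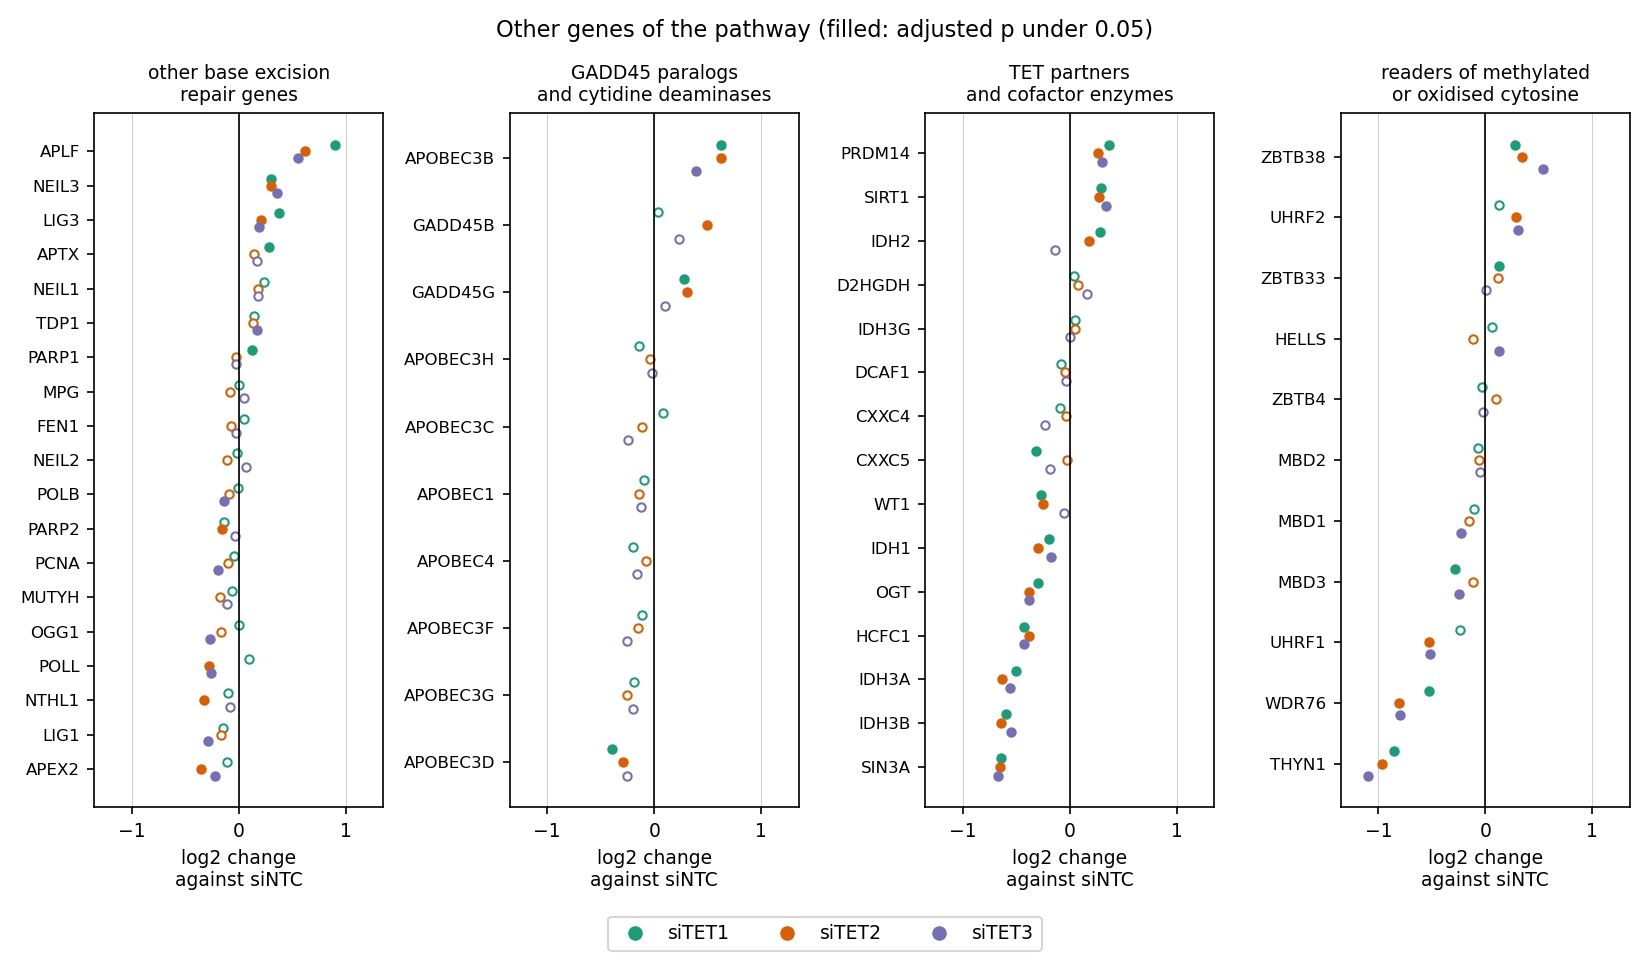
Log2 change against siNTC of every measured gene of the 4 lists in siTET1, siTET2 and siTET3, sorted by the mean of the depletions; filled points passed the limma test at an adjusted p under 0.05. APLF stands highest among the repair genes (0.90 in siTET1), and THYN1 lowest among the readers (-1.10 in siTET3).

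Lastly, the genes above background whose values ran most like those of each member over the 8 arrays were listed as a description, from 12748 genes. The 8 arrays form 4 groups, so such a likeness mostly restates the order of the 4 group levels. TET1 ran most like H2BC14 (Pearson r = 0.982), USP12 (0.972) and RBM22 (0.971). TET2 ran most like GATM (0.986), C5orf34 (0.979) and AGPS (0.977), and TET3 most like RFTN2 (0.990), MEX3D (0.981) and DAB1 (0.978). Among the repair members, the single closest gene was PDCD7 for TDG (0.946), MECR for SMUG1 (0.956), C6orf62 for MBD4 (0.984), USP48 for UNG (0.990), TGS1 for APEX1 (0.990), TIMM10 for XRCC1 (0.994) and COA3 for GADD45A (0.971).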

How the data were processed

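RNA levels were measured in 4 groups of NCCIT cells with 2 arrays per group, assigned by the titles of the samples. The values used are log2 intensities as deposited by the authors, who normalized them between arrays in Partek; its version and how it corrected background and summarized probes were not given in the sources used here. Of 33297 transcript clusters, the array annotation gives 1 gene symbol to 19460, and the others were left out. Arrays have no read depth, and their number limits the precision.

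The deposited values of all 19460 clusters were fitted by a linear model of 4 group means in limma 3.58.1 (R 4.3.3), with moderated variances that follow intensity (eBayes with a trend; residual degrees of freedom 4, prior 8.11) and 7 two-sided comparisons. Benjamini-Hochberg adjustment ran over all clusters of a comparison, and a cluster was called at an adjusted p under 0.05. Whether replicates came from separate cultures is not stated in the labels, so p-values reflect the spread between arrays, which may be technical. Intervals are 95% and unadjusted. The fit was run on simulated data with independent noise and changes placed in siTET1 only, which checks the code and not the calls made here. Positions are those of RefSeq genes on GRCh38.p14, found through the gene identifier, not of probes.

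The members and gene lists were chosen with earlier results of these data known. Named were all members, up to 4 genes per list with the smallest p in the mean of the depletions, and every list gene past the test at 1.5-fold or more. For a gene of several clusters the brightest stood for it in the lists. The closest genes were ranked by Pearson r, 3 for each TET and 1 for each other member. Alternatives were quantile normalization, median centring, no intensity trend, only the compared arrays, other sets of clusters, a replicate block, stricter thresholds and leaving out each array.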

Additional observations from a re-analysis of the deposited data

How the results depend on the processing

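No called change reversed in any alternative. The fall of each targeted TET kept its call in 18 of 18 alternatives, with log2 changes between -0.73 and -0.64 for TET1, -0.98 and -0.78 for TET2, and -1.30 and -0.85 for TET3 when 1 array was left out. Demanding 1.5-fold beside the adjusted p left 0 of the 7 repair members in each of the 7 comparisons and 1 of the tests of untargeted TETs (TET1 in siTET3 against siTET2). The counts between depletions were the least stable. For siTET2 against siTET1, 2 repair members passed, against 0 without the intensity trend and 0 at an adjusted p under 0.01, and 0 to 2 with 1 array left out. For siTET3 against siTET1, 1 passed, against 0 and 0 in the same settings and 0 to 2. For siTET3 against siTET2, 3 passed, against 1 without the trend and 1 to 3. The called clusters behind them numbered 1165, 2582 and 2296 with the trend and 226, 1332 and 993 without it, and 2419 for siTET2 against siTET1 when only its own arrays were fitted. With 1 array left out they ran from 232 to 1578, 1025 to 3337 and 807 to 2872. The causes of these shifts were not tested.

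The mean change of TET3 over the depletions (-0.46, adjusted p = 0.00854) fell to -0.24 without siNTC replicate 1 (adjusted p = 0.223). Of the single values recomputed with an array left out, 552 of 592 kept their side of the threshold, and 663 of 715 in the other settings. The labels do not say whether replicate numbers pair samples across groups. Replicate differences of siTET1 and siTET3 correlated at 0.2408, and those of the other pairs of groups between -0.0451 and 0.0279. With 2 arrays per group, this check cannot decide whether replicates were paired. With the replicate block, 6665, 6985 and 6978 clusters were called in siTET1, siTET2 and siTET3, against 6610, 6942 and 6952 without it, and UNG in siTET2 lost its call (adjusted p = 0.0544). The mean of the depletions has no value from compared arrays only. With 2 arrays per group, a change of TDG or GADD45A smaller than its interval could not be seen. Since the intervals are unadjusted and the calls are adjusted, a somewhat larger change could be missed as well.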
